A study of Mus musculus with 12 samples.

Results

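The genes described here are 8 genes that mark the delta cell of the mouse pancreatic islet: Sst, Hhex, Rbp4, Ghsr, Crhr2, Lepr, Nrg3 and Ptprz1. They were chosen by name, as general markers of the cell type, with earlier results of these data known. All 8 were found among the 23104 genes listed in both the female and the male table. Delta cells are the islet's somatostatin cells. They sit among the insulin-secreting beta cells and the glucagon-secreting alpha cells and release somatostatin, which restrains both neighbours. Ghrelin acts on them through its receptor, and urocortin 3, which mouse beta cells release together with insulin, acts on them through a corticotropin-releasing hormone receptor and stimulates somatostatin release.

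The study deleted Rnf20, which encodes a ubiquitin ligase for histone H2B, in the mouse pancreas and sequenced RNA of whole, hand-picked islets. Knockout mice carried floxed Rnf20 alleles (Rnf20 F/F) and Pdx1 Cre ER, a Cre recombinase that tamoxifen switches on in cells with an active Pdx1 promoter. Controls were labelled Rnf20 Flox Control, and the labels name no Cre in them. Mice of every group had received 5 gavages of tamoxifen, each 150 ug per g of body weight, at an age of 4 weeks, and the age at islet collection is not given in the sources used here. There were 3 libraries in each of 4 groups, namely female knockout, female control, male knockout and male control. The labels do not say whether a library came from 1 animal or from several. The design text describes the knockout as enriched in beta cells. Mouse delta cells are known to make some PDX1 protein, and how many of them recombined was not measured.

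Each library held between 19759712 and 56086810 reads assigned to genes. Male control 2 was the shallowest, and 1596 of the genes tested in males had no read in it, against at most 200 in any other library. Rnf20 itself was lower in every knockout library, with 1877, 2000 and 1927 normalized counts in female knockout islets and 3589, 4032 and 4340 in female control islets. Male knockout islets had 1519, 1373 and 1436 normalized counts of Rnf20, against 3812, 3409 and 4058 in male control islets (limma, log2 fold change -1.04, adjusted p = 6.35e-04 in females and -1.38, adjusted p = 7.91e-04 in males). These counts cover the whole gene in all islet cells and do not say in which cell type it was lost. A normalized count is the number of reads of a gene in a library divided by that library's size factor, and the tables for females and males were scaled separately. Levels are not compared between genes, because transcript lengths were not used.

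The promoters of 3 members are printed because these genes were called in opposite directions, Sst and Hhex lower in knockout islets of both sexes and Crhr2 higher in female knockout islets. Each run is the 250 bases before the RefSeq start of the gene, read 5' to 3' on the gene's strand. They come from RefSeq sequences of build GRCm38.p6, while the expression tables use GRCm39, so promoter and gene positions are not on the same scale. The coordinates are chr16:23890845-23891094, minus strand, for Sst, chr19:37434591-37434840, plus strand, for Hhex, and chr6:55133017-55133266, minus strand, for Crhr2. All 8 members matched a RefSeq entry, with 10 starts among them.
Sst: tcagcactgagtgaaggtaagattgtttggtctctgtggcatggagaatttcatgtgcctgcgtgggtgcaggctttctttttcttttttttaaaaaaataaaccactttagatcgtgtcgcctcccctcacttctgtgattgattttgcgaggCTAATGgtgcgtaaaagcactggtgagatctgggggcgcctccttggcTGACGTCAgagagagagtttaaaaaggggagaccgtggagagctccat
Hhex: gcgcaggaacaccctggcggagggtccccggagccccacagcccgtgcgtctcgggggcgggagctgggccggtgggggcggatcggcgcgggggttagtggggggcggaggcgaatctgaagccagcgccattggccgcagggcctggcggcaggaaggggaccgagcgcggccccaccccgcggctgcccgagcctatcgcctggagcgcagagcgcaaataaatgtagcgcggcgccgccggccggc
Crhr2: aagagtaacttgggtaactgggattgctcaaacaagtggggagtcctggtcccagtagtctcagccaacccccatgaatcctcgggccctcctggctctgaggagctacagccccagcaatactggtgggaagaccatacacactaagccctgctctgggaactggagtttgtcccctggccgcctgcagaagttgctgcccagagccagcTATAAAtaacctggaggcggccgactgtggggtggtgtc
Capitals mark matches, on either strand, to 4 motifs that were searched: TGACGTCA (the cyclic AMP response element), CTAATG and TAATTA (homeodomain-type motifs) and TATAAA (the TATA box), which share no overlapping match here. The Sst run held TGACGTCA at -48 to -41 and CTAATG at -96 to -91 relative to the start. Background knowledge from the rat gene places a response element for CREB and a binding site for PDX1 in this part of the somatostatin promoter. Crhr2 held TATAAA at -39 to -34, and the Hhex run held none of the 4 motifs. Among 32851 RefSeq promoters of the same length, TGACGTCA was present in 1.55%, TAATTA in 4.84%, CTAATG in 6.36% and TATAAA in 12.4%. Of the other members, the second start of Rbp4 held TATAAA at -28 to -23, and no other start held a motif.

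Sst, the somatostatin gene (ENSMUSG00000004366, chromosome 16, 23708323 to 23709708, GRCm39, minus strand), was lower in knockout islets of both sexes. Sst had 28052, 33145 and 27011 normalized counts in female knockout islets, against 76189, 66425 and 77235 in female control islets. The highest female knockout library lay below the lowest control library. The means were 29403 ± 3283 in female knockout islets and 73283 ± 5962.5 in female control islets (SD, n = 3 libraries each), which is 2.50-fold lower on the log2 scale (limma, log2 fold change -1.32, SE 0.11, adjusted p = 4.67e-04). Male knockout islets had 21195, 27837 and 34764 normalized counts of Sst, against 64537, 54885 and 84558 in male control islets. The male groups did not overlap either. The male means were 27932 ± 6785 in knockout and 67993 ± 15135 in control islets (SD, n = 3 libraries each), 2.44-fold lower (limma, log2 fold change -1.29, SE 0.21, adjusted p = 0.00602). In RNA of whole islets, fewer delta cells and less somatostatin RNA per delta cell cannot be told apart. With quantile scaling, which gives all libraries the same distribution of values, the male call was lost (log2 fold change -1.04, adjusted p = 0.0661) and the female log2 fold change was -0.85 (adjusted p = 0.00175).

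Hhex encodes a homeobox transcription factor that mouse delta cells need for their differentiation (ENSMUSG00000024986, chromosome 19, 37423258 to 37429179, plus strand). It fell in knockout islets of both sexes. In females, Hhex had 545, 430 and 397 normalized counts in knockout islets, against 659, 643 and 654 in female control islets. The female control libraries lay close together, and all knockout libraries lay below them. The female difference was 1.44-fold (limma, log2 fold change -0.52, SE 0.14, adjusted p = 0.0337). In males, it had 292, 279 and 244 in knockout islets, against 471, 675 and 525 in male control islets. Here too the groups did not overlap, and the difference was 2.03-fold (limma, log2 fold change -1.02, SE 0.22, adjusted p = 0.0175). The female call was lost without knockout 2 (adjusted p = 0.123), knockout 3 (0.105), control 1 (0.0632), control 2 (0.0914) or control 3 (0.0648), in the fit of all 12 libraries (0.0629), with the replicate number as a block (0.0505) and with the level of the acinar marker genes as a covariate (0.160). With the acinar covariate the female log2 fold change was -0.59. The male call was lost without knockout 1 (adjusted p = 0.0662), knockout 3 (0.05001) or control 3 (0.0519).

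Rbp4 encodes the retinol carrier of blood plasma, and its transcript is enriched in delta cells among mouse islet cells (ENSMUSG00000024990, chromosome 19, 38105077 to 38113729, minus strand). Female knockout islets had 4101, 3694 and 4151 normalized counts, against 5746, 4415 and 5359 in female control islets. All female knockout values were under the lowest female control value, yet the difference did not pass the threshold (limma, log2 fold change -0.37, SE 0.12, adjusted p = 0.0582). It passed without female control 2 (adjusted p = 0.0364), with DESeq2 (0.0252), in the fit of all 12 libraries (0.0486) and with the replicate block (0.0357). With the acinar covariate the female log2 fold change was -0.16 (adjusted p = 0.599). In males, Rbp4 had 2540, 2632 and 2878 normalized counts in knockout islets, against 3955, 3475 and 4069 in male control islets. The groups did not overlap, and Rbp4 fell 1.43-fold in male knockout islets (limma, log2 fold change -0.51, SE 0.12, adjusted p = 0.0243). The male call was lost without knockout 1 (adjusted p = 0.124), knockout 2 (0.0517), control 1 (0.0722) or control 3 (0.0914).

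Of the 3 hormone receptors among the members, Ghsr fell and Crhr2 rose in female knockout islets, and Lepr was not called. Ghsr encodes the ghrelin receptor (ENSMUSG00000051136, chromosome 3, 27425500 to 27432159, plus strand), through which ghrelin raises somatostatin release in mouse islets. Female knockout islets had 80.9, 70.8 and 62.5 normalized counts of Ghsr, against 155, 240 and 349 in female control islets. The female groups did not overlap, and Ghsr fell 3.28-fold (limma, log2 fold change -1.71, SE 0.29, adjusted p = 0.00610). The male values were 75.1, 39.9 and 94.4 in knockout islets, against 157, 65.9 and 197 in male control islets. Male control 2 lay among the male knockout libraries, and the male difference was not called (limma, log2 fold change -0.94, SE 0.52, adjusted p = 0.277, 95% interval -2.12 to 0.24). With the level of the acinar marker genes as a covariate, the female difference had an adjusted p of 0.0514 (log2 fold change -1.91).

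Crhr2, the receptor for urocortin 3 (ENSMUSG00000003476, chromosome 6, 55067034 to 55110001, minus strand), was higher in female knockout islets, opposite in direction to the other called members. Its normalized counts were 344, 404 and 348 in female knockout islets, against 47.6, 54.7 and 53.7 in female control islets. In reads these were 395, 365 and 417 in female knockout islets and 46, 52 and 48 in female control islets. The groups were far apart relative to the spread within each, and the rise was 6.90-fold (limma, log2 fold change 2.79, SE 0.17, adjusted p = 1.96e-04). When the male libraries entered the estimate of the spread (1 fit over all 12 libraries), the same female difference no longer passed (adjusted p = 0.120).

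Male knockout islets had 504, 252 and 266 normalized counts of Crhr2 (510, 278 and 304 reads), against 61.5, 0 and 23.0 in male control islets (73, 0 and 32 reads). Every male knockout library lay above every control library, with male control 2 at 0 in the shallowest library, where 3 reads would have stood for 5.99 normalized counts. The values of the other male control libraries lay above that level. Male control 2 also held reads of fewer genes, 17701 against at least 22287 in any other male library. Why it held no read of Crhr2 was not tested. The male means were 341 ± 142 in knockout islets and 28.2 ± 31.1 in control islets (SD, n = 3 libraries each). The male difference missed the threshold (limma, log2 fold change 4.82, SE 1.36, adjusted p = 0.0548), and its size depends on the pseudocount because of the library at 0. Without male control 2 the log2 fold change was 3.07 with an adjusted p of 0.00952, and without male control 1 it was 6.05 with an adjusted p of 0.0177. It also passed with edgeR on the recovered reads (log2 fold change 3.50, adjusted p = 0.0335) and with DESeq2 (3.58, adjusted p = 0.0410).

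Lepr encodes the leptin receptor (ENSMUSG00000057722, chromosome 4, 101574601 to 101672549, plus strand). Female knockout islets had 61.8, 59.7 and 82.5 normalized counts, against 47.6, 72.6 and 45.8 in female control islets. The male counts were 31.6, 49.8 and 17.5 in knockout islets, against 55.6, 25.9 and 13.6 in male control islets. The groups overlapped in both sexes and neither difference was called (limma, log2 fold change 0.31, SE 0.27, 95% interval -0.31 to 0.92, adjusted p = 0.463 in females, and 0.15, SE 0.74, 95% interval -1.51 to 1.82, adjusted p = 0.916 in males). At this depth a change of the size seen for Sst was outside the female interval and inside the male one. The sign of the male value turned without knockout 2 (-0.20) or control 3 (-0.32).

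Nrg3, an epidermal growth factor family ligand that binds ERBB4 (ENSMUSG00000041014, chromosome 14, 38090909 to 39195045, minus strand), had too few reads to be tested. Its mean over the 6 libraries was below the minimum of 10 normalized counts in both sexes. Female knockout islets had 9, 4 and 10 reads, against 10, 18 and 8 in female control islets. Male knockout islets had 2, 3 and 2 reads, against 4, 12 and 9 in male control islets. In normalized counts no knockout library reached the lowest control library of its sex (at most 8.33 in female knockout islets and at least 8.94 in female controls, at most 2.72 in male knockout islets and at least 3.37 in male controls). A fit without the filter gave log2 fold changes of -0.78 in females and -1.58 in males (limma, adjusted p = 0.293 and 0.409), so no difference was detectable at this depth.

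Ptprz1 encodes a receptor-type tyrosine phosphatase that pleiotrophin binds (ENSMUSG00000068748, chromosome 6, 22875501 to 23052915, plus strand). In females it had 301, 296 and 283 normalized counts in knockout islets, against 313, 332 and 571 in female control islets. In males it had 243, 200 and 256 in knockout islets, against 255, 106 and 165 in male control islets. The female groups did not overlap, with the highest knockout library close below the lowest control library, while the male groups overlapped. Neither difference was called (limma, log2 fold change -0.41, SE 0.23, adjusted p = 0.253 in females, and 0.49, SE 0.36, adjusted p = 0.407 in males). The female value was -0.13 without control 3 and -0.26 with the acinar covariate, and the male value was 0.17 without control 2 and 0.81 without control 1, none of them called.

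**Figure D1:**
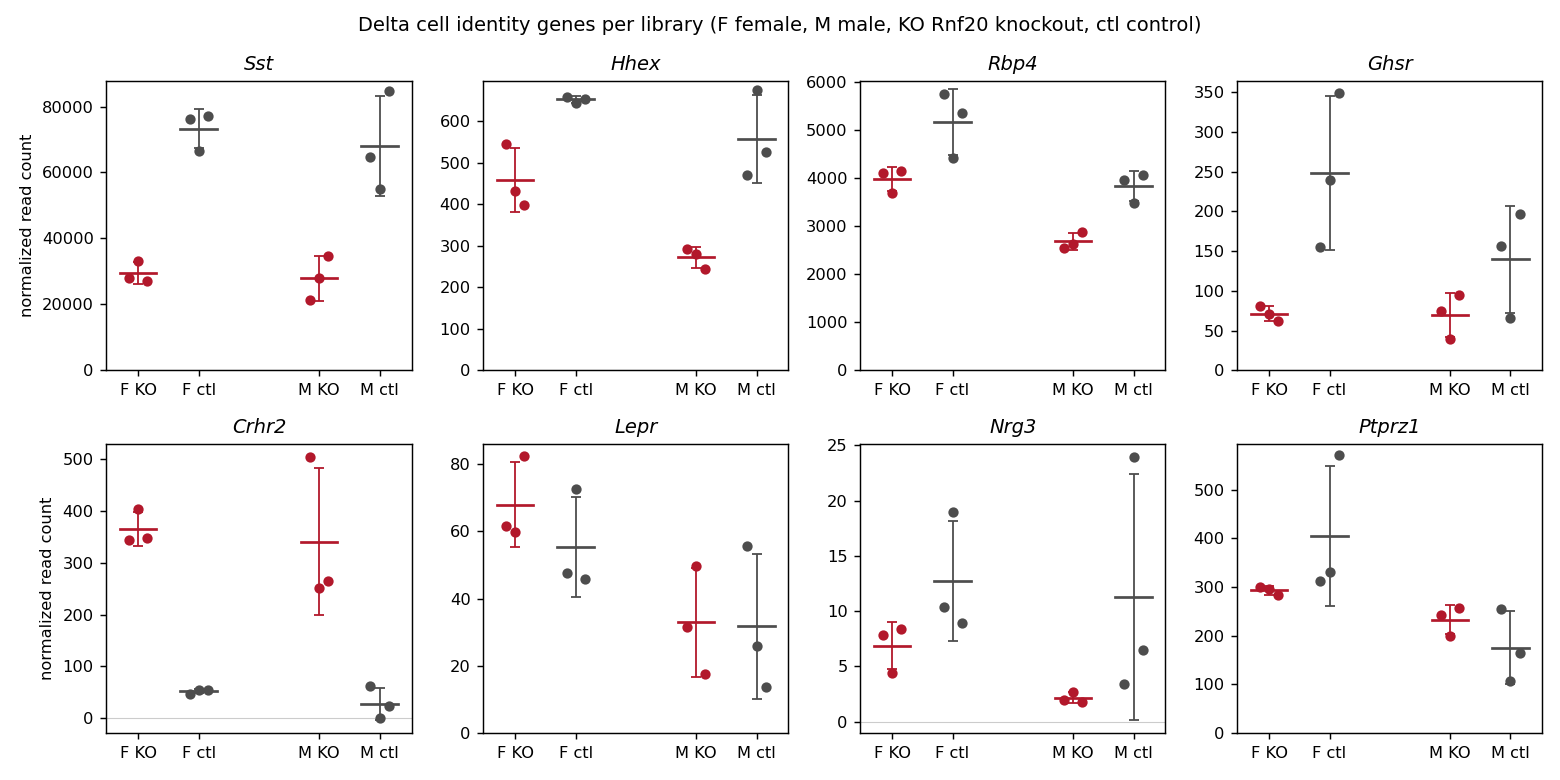
Normalized read count of each of the 8 genes (vertical axes, 1 scale per gene) in each library (points), with the group mean (line) and SD (bar) of 3 libraries, for female (F) and male (M) Rnf20 knockout (KO, red) and control (ctl, grey) islets. Sst lies between 21195 and 34764 in the knockout libraries and between 54885 and 84558 in the control libraries, while Crhr2 lies at 252 or above in every knockout library and at 61.5 or below in every control library.

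In females, 7 of the 8 members passed the filter on low values, and 3 were called lower (Sst, Hhex, Ghsr), 1 was called higher (Crhr2) and 3 were not called (Rbp4, Lepr, Ptprz1). Among all 18142 genes tested in females, 10.7% were called lower and 9.90% higher. In males, 7 members were tested, 3 were called lower (Sst, Hhex, Rbp4), 0 higher and 4 were not called (Ghsr, Crhr2, Lepr, Ptprz1), against 7.09% called lower and 6.08% called higher among all 18010 tested genes. At an unadjusted p under 0.05 limma gave 1 member higher in males, Crhr2, as edgeR and DESeq2 did after adjustment. The median log2 fold change of the tested members was -0.41 in females, where the median of all tested genes was -0.01, and -0.51 in males, where it was 0.06.

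All female knockout libraries were below all female control libraries for 6 of the 8 members, 5 of them tested, and above for 1. Among all tested genes the shares were 20.3% below and 19.0% above. In males all knockout libraries were below all control libraries for 4 of the 8 members, 3 of them tested, and above for 1, against 16.9% and 18.6% of all tested genes. The members called lower in both sexes were 2, Sst and Hhex, and 0 were called higher in both. Over all genes tested in both sexes, 4.81% were lower in both and 4.05% higher in both.

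The knockout effect of the members was not shown to differ between females and males. The interaction of sex and genotype was tested over 17330 genes, of which 0.110% were called, and 0 of the 7 members were called by limma or by edgeR, with 0 at an unadjusted p under 0.05. The differences of the log2 fold changes, female minus male, were -0.03 for Sst (95% interval -0.60 to 0.54, adjusted p = 0.981) and 0.50 for Hhex (95% interval -0.03 to 1.02, adjusted p = 0.644). Those for the receptors had wide intervals, -0.77 for Ghsr (95% interval -2.15 to 0.60, adjusted p = 0.765) and -2.04 for Crhr2 (95% interval -5.39 to 1.31, adjusted p = 0.750). Without male control 2 these differences were -0.31 for Ghsr and -0.28 for Crhr2, and edgeR gave -0.65 for Crhr2. Ptprz1, lower in female and higher in male knockout islets by its group means, had a difference of -0.90 (95% interval -1.84 to 0.04, adjusted p = 0.638).

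**Figure D2:**
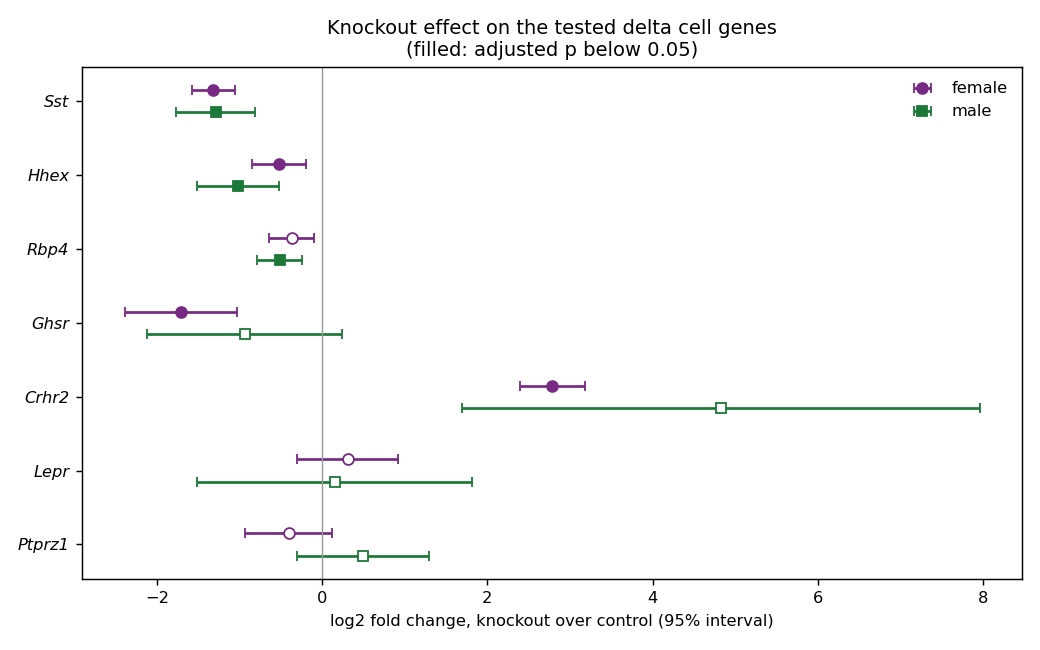
Log2 fold change, knockout over control (horizontal axis), with its 95% interval (bar) for the 7 tested members in females (circles) and males (squares), filled where the adjusted p was below 0.05. Sst has nearly the same value in both sexes (-1.32 in females and -1.29 in males), and Crhr2 is the sole member with an interval wholly above 0 in both sexes.

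The authors' deposited table, which gives their own DESeq2 comparison, called 4 members lower in females (Sst, Hhex, Rbp4 and Ghsr) and 1 higher (Crhr2), where it called 12.9% of the genes tested here lower and 11.2% higher. In males the authors' deposited table called 3 members lower (Sst, Hhex and Rbp4) and 1 higher (Crhr2, log2 fold change 3.58, adjusted p = 0.0434), where it called 10.8% of the genes tested here lower and 9.86% higher. The members whose call differs from limma's are thus Rbp4 in females (adjusted p = 0.0288 in the authors' deposited table) and Crhr2 in males.

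Each member was also expressed relative to Sst in the same library, as the difference of their log2 values. Rbp4 stood higher relative to Sst in knockout islets. Its log2 difference to Sst lay between -3.17 and -2.70 in female knockout islets and between -3.91 and -3.73 in female control islets, and between -3.59 and -3.06 in male knockout islets and between -4.38 and -3.98 in male control islets. The group means differed by 0.95 in females and 0.78 in males, knockout minus control, and the groups did not overlap in either sex. Hhex stood higher relative to Sst in every female knockout library than in any female control library (group means 0.80 apart), while its male groups overlapped (0.27 apart). Ghsr relative to Sst overlapped between the groups in both sexes (-0.39 in females and 0.35 in males).

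Ptprz1 and Crhr2 stood higher relative to Sst in all knockout libraries of both sexes, by 0.91 and 4.11 in females and by 1.78 and 6.11 in males on the log2 scale. Lepr did so in females (1.63) and overlapped in males (1.44), and Nrg3 overlapped in both (0.54 in females and -0.29 in males). A higher value relative to Sst was the rule among all tested genes, since Sst itself was low: 85.8% of them in females and 68.8% in males had every knockout library above every control library on this measure, and 0.375% and 0.439% had every knockout library below. The relative values are a description of the proportions among the members.

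**Figure D3:**
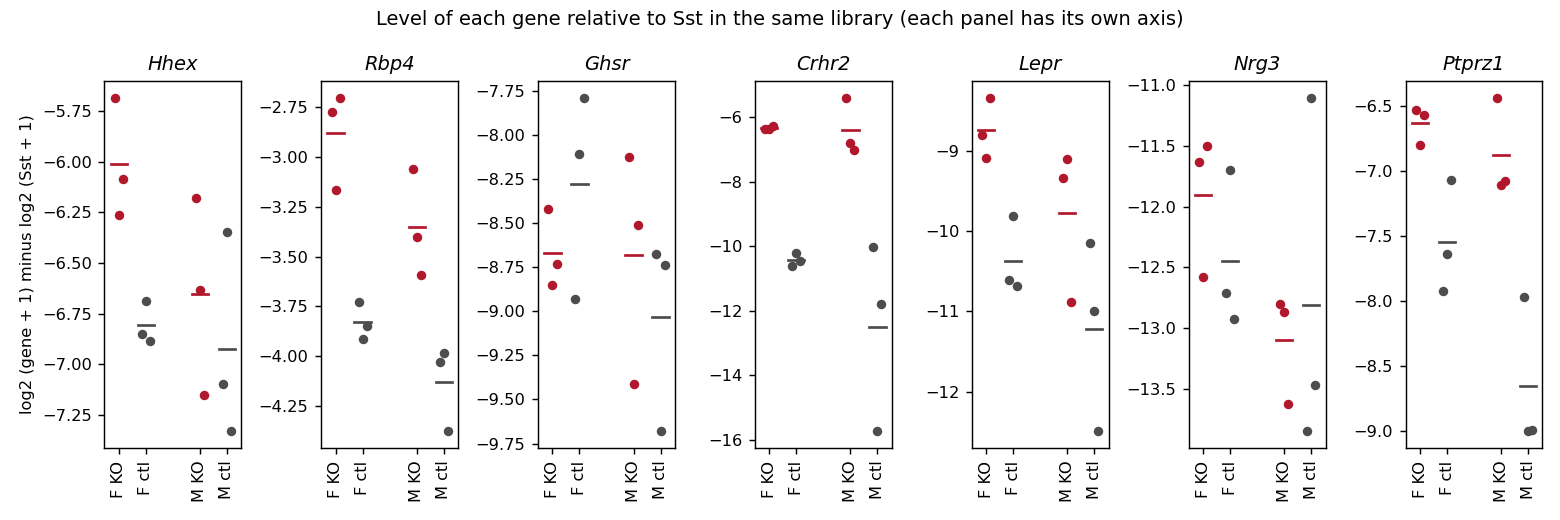
Log2 difference between each gene and Sst in the same library (vertical axes, 1 scale per gene, each from normalized counts plus 1), with the group mean as a line, for female (F) and male (M) knockout (KO, red) and control (ctl, grey) islets. Rbp4 groups do not overlap in either sex (means 0.95 and 0.78 apart), while Ghsr groups overlap in both (-0.39 and 0.35).

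The genes that act with the members were read from lists of their ligands, receptors and processing enzymes. For comparison, limma called 10.7% of all tested genes lower and 9.90% higher in females, and 7.09% lower and 6.08% higher in males. Of the somatostatin receptors, through which the hormone acts on its neighbours, 4 of 5 were tested and 0 were called in either sex by limma, edgeR or DESeq2, with 1 at an unadjusted p under 0.05 in females, Sstr5, and 0 in males. Sstr3 had 5838, 6694 and 4872 normalized counts in female knockout islets, against 6602, 5656 and 5933 in female control islets (limma, log2 fold change -0.07, SE 0.13). The male log2 fold change of Sstr3 was -0.23 (limma, adjusted p = 0.242). That of Sstr5 was 1.12 in females and 2.71 in males (limma, unadjusted p = 0.0485 and 0.0513, adjusted p = 0.145 and 0.180). Male knockout libraries had 20.8 to 73.4 normalized counts of Sstr5, against 0 to 15.2 in male control libraries. The median log2 fold change of the receptors was 0.04 in females and 0.45 in males, a male value that rests on 4 genes, of which Sstr1 and Sstr5 had few reads.

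Among 8 tested ligands and carriers of the members, Ucn3 fell in both sexes. Ucn3 is urocortin 3, the ligand of Crhr2. It had 1868, 1919 and 2196 normalized counts in female knockout islets, against 6919, 5617 and 4051 in female control islets, and 1413, 1652 and 1922 in male knockout islets, against 6383, 3557 and 5237 in male control islets. The groups did not overlap in either sex (limma, log2 fold change -1.44, adjusted p = 0.00226 in females and -1.58, adjusted p = 0.00307 in males), and the direction was opposite to that of its receptor. Ptn, which encodes pleiotrophin, a ligand of Ptprz1, was higher in female knockout islets, with 210, 129 and 211 normalized counts, against 84.9, 101 and 101 in female control islets (limma, log2 fold change 0.90, adjusted p = 0.0301). That call was lost without knockout 1 or 3 or without control 1 or 2 (adjusted p up to 0.102), in the fit of all 12 libraries (0.109) and with the replicate block (0.0588). The male value was not called by limma within males (log2 fold change 1.35, adjusted p = 0.102) and was called when all 12 libraries were fitted together (0.0138). The list's median log2 fold change was 0.09 in females and 0.53 in males.

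Among 8 tested receptors and signalling partners, Mrap2 rose in both sexes. Mrap2 encodes an accessory protein of melanocortin receptors that also associates with the ghrelin receptor. It had 164, 137 and 153 normalized counts in female knockout islets, against 48.7, 77.9 and 53.7 in female control islets, and 271, 387 and 464 in male knockout islets, against 65.7, 122 and 126 in male control islets (limma, log2 fold change 1.35, adjusted p = 0.00625 in females and 1.85, adjusted p = 0.0104 in males). Socs3, a feedback inhibitor of leptin and cytokine receptors, was called higher in females (limma, log2 fold change 0.55, adjusted p = 0.0301), and Leprot, which limits leptin receptor at the cell surface, lower (log2 fold change -0.36, adjusted p = 0.0297). Both of these female calls were lost without any 1 of 5 libraries, for Socs3 all but knockout 3 (adjusted p up to 0.0860) and for Leprot all but control 1 (up to 0.122), and when all 12 libraries were fitted together (0.183 for Socs3 and 0.0894 for Leprot). In males limma called Mrap2 alone among this list. Leprot was lower in males with DESeq2 (adjusted p = 0.0337) and when all 12 libraries were fitted together (0.0107), and without knockout 3 Leprot was called lower (adjusted p = 0.0236) and Socs3 higher (0.0395). The list's median log2 fold change was -0.03 in females and 0.14 in males.

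Of 5 enzymes that process prohormones, 2 fell in both sexes. Among all genes tested in both sexes, limma called 4.81% lower in both. Pcsk1, a convertase that cleaves prohormones in secretory granules, had 17858, 19932 and 21357 normalized counts in female knockout islets, against 46238, 53670 and 54200 in female control islets. In male knockout islets it had 14986, 15261 and 17305, against 29091, 52376 and 37729 in male control islets (limma, log2 fold change -1.38, adjusted p = 3.95e-04 in females and -1.29, adjusted p = 0.00443 in males). Pam, which amidates peptide hormones, fell as well (limma, log2 fold change -0.89, adjusted p = 0.00123 in females and -1.01, adjusted p = 0.00809 in males), and its call was lost with quantile scaling in both sexes (adjusted p = 0.160 in females and 0.0560 in males). Limma called none of Pcsk2, Cpe and Furin in either sex. Furin was higher in females at an unadjusted p under 0.05, and DESeq2 called 1 gene of the list higher in females and edgeR 0. The list's median log2 fold change was -0.21 in females and -0.25 in males. These enzymes act in beta and alpha cells too, and their share from delta cells was not measured.

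Other transcripts enriched in delta cells, from a list of 13 genes apart from the 8 members, had no member called lower by limma in either sex. Over all tested genes, limma called 10.7% lower and 9.90% higher in females, and 7.09% lower and 6.08% higher in males. In a list this short, the absence of a lower call is close to those shares. At an unadjusted p under 0.05, 1 gene of the list was lower in females and 0 in males. After adjustment DESeq2 called 1 lower in females and edgeR 0. In females 13 were tested and 3 were called higher. Pou3f1, a POU domain transcription factor, had 178, 268 and 129 normalized counts in female knockout islets, against 20.7, 30.5 and 25.7 in female control islets (limma, log2 fold change 2.81, adjusted p = 0.00107). In male knockout islets it had 190, 87.0 and 50.7, against 33.7, 67.9 and 37.3 in male control islets, where the groups overlapped (log2 fold change 1.08, adjusted p = 0.255). Frzb, a secreted Wnt antagonist, was higher in female knockout islets (log2 fold change 0.72, adjusted p = 0.0102), though it was not called when all 12 libraries were fitted together (0.0690). In males Frzb was not called by limma (log2 fold change 0.81, adjusted p = 0.0831), but it was called without knockout 2 (adjusted p = 0.0308), with DESeq2 (0.00856), in the fit of all 12 libraries (0.0282), with the replicate block (0.0106) and with the acinar covariate (0.0248). Bche, butyrylcholinesterase, was higher in female knockout islets as well (log2 fold change 1.38, adjusted p = 0.0140), no longer called when female control 2, knockout 1 or knockout 2 was left out (adjusted p up to 0.0630) or in the fit of all 12 libraries (0.125).

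In males 12 of these transcripts were tested, and 1, the calcium-sensing receptor gene Casr, was called higher. It had 1641, 1666 and 1765 normalized counts in male knockout islets, against 859, 1361 and 917 in male control islets (limma, log2 fold change 0.72, adjusted p = 0.0324). The call was kept without control 2 and lost without any other single male library (adjusted p up to 0.108) and when all 12 libraries were fitted together (0.0601). The median log2 fold change of the list was 0.23 in females and 0.08 in males, against -0.41 in females and -0.51 in males for the tested members.

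Of the transcription factors that delta cells share with other islet cells, 10 were tested in each sex, with 1 higher and 4 lower in females and 1 higher and 1 lower in males. The shares over all tested genes were 9.90% higher and 10.7% lower in females, and 6.08% higher and 7.09% lower in males. The male counts of this list are thus near those shares. Pax4, which takes part in beta and delta cell formation in the embryo, had 37, 25 and 31 reads in female knockout islets, against 0, 0 and 0 in female control islets, and 55, 32 and 22 reads in male knockout islets, against 0, 0 and 2 in male control islets. It was called higher in both sexes (limma, adjusted p = 7.21e-04 in females and 0.0398 in males). Set against 3 reads in each female control library, Pax4 was at least 8.91-fold higher in female knockout islets. The male call was kept without control 2 and lost without any other single male library (adjusted p up to 0.287), with a pseudocount of 0.5 (0.0545), with the replicate block (0.0757) and with the acinar covariate (0.0736).

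Pdx1 (log2 fold change -1.07, adjusted p = 0.00284), Neurod1 (-0.82, adjusted p = 0.00428), Pax6 (-0.72, adjusted p = 0.00159) and Isl1 (-0.47, adjusted p = 0.0151) fell in female knockout islets (limma). Isl1 was no longer called when either female knockout 1 or 2 was left out (adjusted p up to 0.0630). In males limma called none of these 4, and Insm1 was called lower (limma, log2 fold change -0.50, adjusted p = 0.0441), a call kept without control 1 and lost without any other single male library (adjusted p up to 0.146), with quantile scaling (0.113) and with the replicate block (0.0759). Pdx1 in males had 1723, 1637 and 4611 normalized counts in knockout islets, against 3607, 4173 and 4295 in control islets, so that knockout 3 lay above every control library. Without male knockout 3 the male Pdx1 difference was called (log2 fold change -1.26, adjusted p = 0.00299), as was that of Isl1 (-0.65, adjusted p = 0.0349). Neurod1 was called in males without knockout 3 or control 1 (adjusted p down to 0.0210). With DESeq2 and in the fit of all 12 libraries, Neurod1 (adjusted p = 0.0269 and 0.0317) and Isl1 (0.0332 and 0.0243) were called lower in males, and Neurod1 also with the acinar covariate (0.0495). The median log2 fold change over the list was 0.06 in females, with Pax4 at its bound or as fitted, and -0.22 in males.

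**Figure D4:**
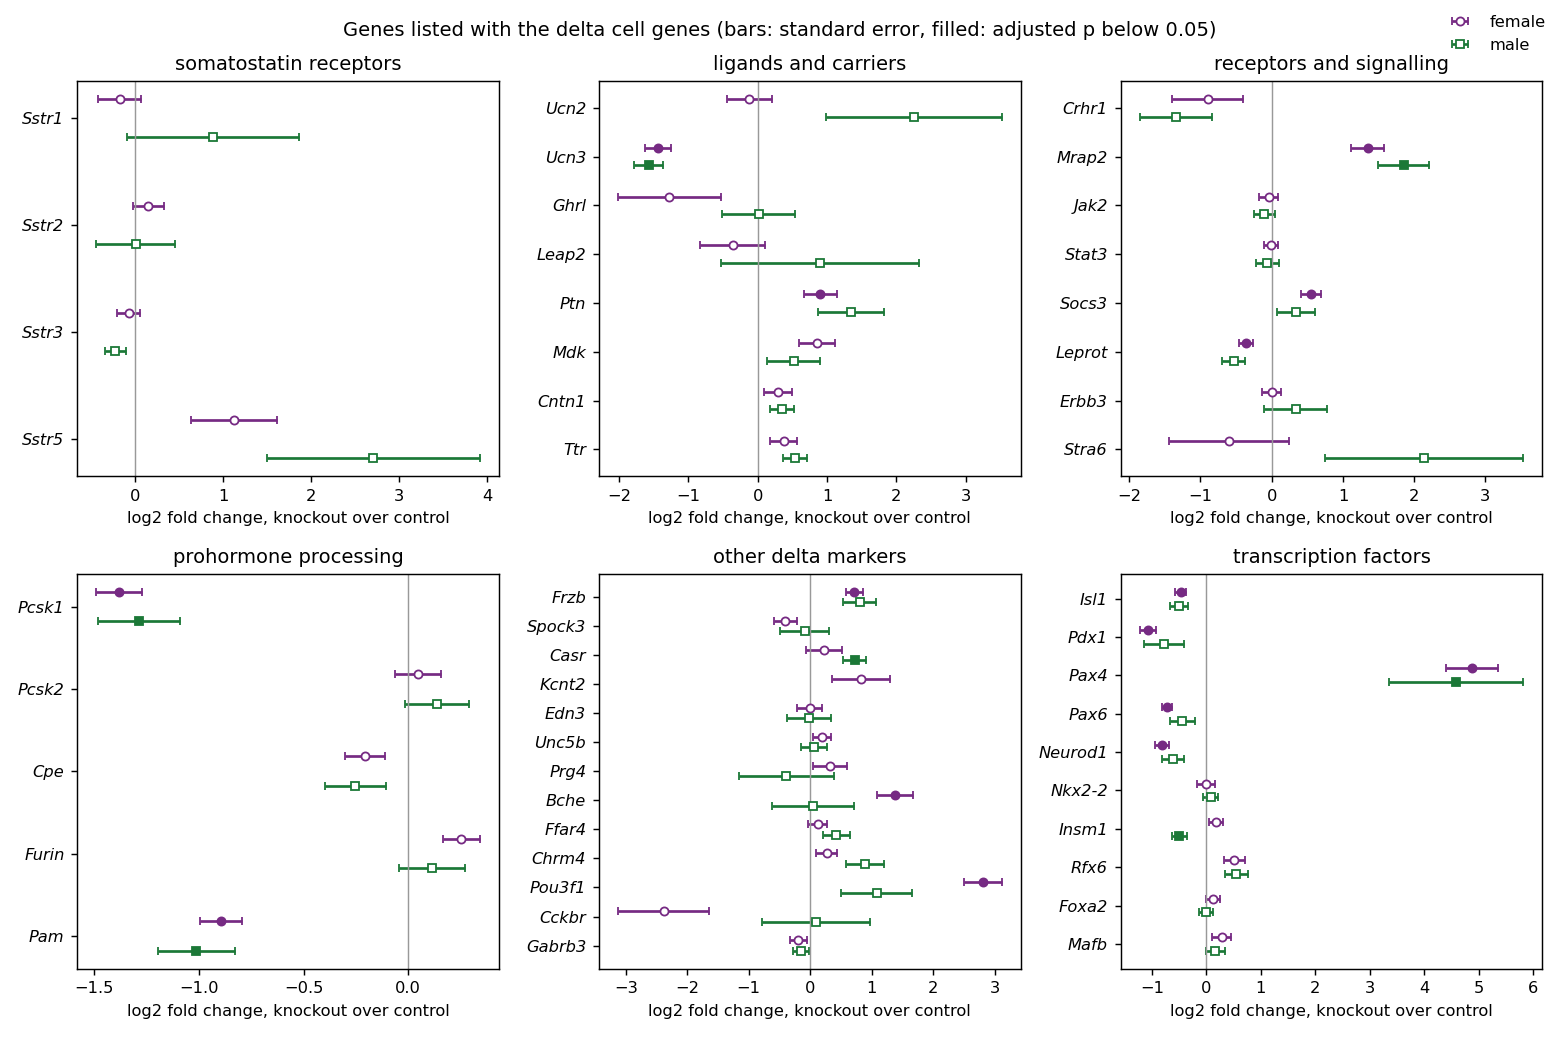
Log2 fold change, knockout over control (horizontal axes), with its standard error (bar) for tested genes of 6 lists in females (circles) and males (squares), filled where the adjusted p was below 0.05. Ucn3 (-1.44 in females and -1.58 in males), Pcsk1 (-1.38 and -1.29), Pam (-0.89 and -1.01) and Mrap2 (1.35 and 1.85) are called in both sexes, while none of the 4 tested somatostatin receptors is.

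Markers of other cells in the islet preparation moved with the genotype in part. With the acinar marker level as a covariate, Sst had a log2 fold change of -1.14 in females (adjusted p = 0.0137) and -1.28 in males (adjusted p = 0.00380), and Crhr2 one of 2.74 in females (adjusted p = 0.00562), while Hhex and Ghsr lost their female calls. For the other cell types, their part in the results above was not tested. Of 8 beta cell markers, 6 were called lower and 1 higher in females and 5 lower and 1 higher in males, and their summed share of reads was 11.4% to 11.8% in female knockout islets, 13.0% to 18.4% in female control islets, 10.5% to 15.5% in male knockout islets and 16.4% to 21.2% in male control islets. Of 7 tested alpha cell markers 1 was called higher in each sex, Gc in females and Slc7a2 in males. Among all tested genes, 10.7% were called lower and 9.90% higher in females, and 7.09% lower and 6.08% higher in males. None of 12 tested acinar markers was called by limma in either sex. In females, however, 10 were lower at an unadjusted p under 0.05 and DESeq2 called 9 lower and edgeR 2, with a summed share of 1.33% to 1.83% of reads in knockout islets and 1.72% to 4.29% in control islets. The acinar share was 0.903% to 4.55% in male knockout islets and 0.393% to 5.79% in male control islets.

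Of 8 endothelial markers, 4 were called higher in males (Emcn, Kdr, Pecam1, Plvap) and 0 in females, where 1 was higher at an unadjusted p under 0.05 and by DESeq2 and 0 by edgeR, with a summed share of 0.0607% to 0.0790% in male knockout islets and 0.0401% to 0.0460% in male control islets. Among stellate markers 1 per sex was called higher (Col1a1 in females, Pdgfrb in males), while in males DESeq2 called 3 higher and edgeR 1. No duct, macrophage, adipocyte or pancreatic polypeptide and epsilon cell marker was called by limma. In males, however, DESeq2 called 1 macrophage marker higher and 2 pancreatic polypeptide and epsilon cell markers lower, and edgeR called 0 in these lists. Among these lists, Tmem27 in both sexes and Plin1 in females were not analysed here. The 8 delta members together made up 0.0930% to 0.106% of reads in female knockout islets and 0.186% to 0.212% in female control islets, and 0.0701% to 0.106% in male knockout islets and 0.150% to 0.223% in male control islets. Sst alone made up 0.0776% to 0.0920% in female knockout islets and 0.171% to 0.195% in female control islets.

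The islet genes whose profile was most like that of Sst were sought among 8789 genes with at least the median level in each sex. The measure was the root mean square difference of log2 values over the 12 libraries, after each gene's mean within its sex was taken off, so it follows the differences between libraries and not the level. The 5 closest were Sv2a, a synaptic vesicle glycoprotein (0.18), Spcs3, a subunit of the signal peptidase complex (0.20), Trabd, a TraB domain gene (0.20), Nans, the sialic acid synthase (0.21), and Tbl2, a transducin beta-like gene (0.21). All 5 were called lower in knockout islets of both sexes, with log2 fold changes between -1.48 and -0.91 in females and between -1.45 and -1.11 in males. This follows from the selection, because Sst itself was lower in every knockout library. Over all genes tested in both sexes, 4.81% were called lower in both. The other members were farther from Sst on this measure, at 0.43 for Hhex, 0.47 for Rbp4 and 0.48 for Ghsr, and 633, 870 and 934 of the candidate genes were closer than they were. Ptprz1 (0.79), Lepr (1.02) and Crhr2 (2.89) were farther still. Of these members, Rbp4 alone passed the level filter of the candidates. The others had lower counts than that filter asks for and were set against genes that passed it. How far their low counts add to their distance from Sst was not tested. All values share the same 12 libraries and their depth, and the ranking is a description without a test.

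**Figure D5:**
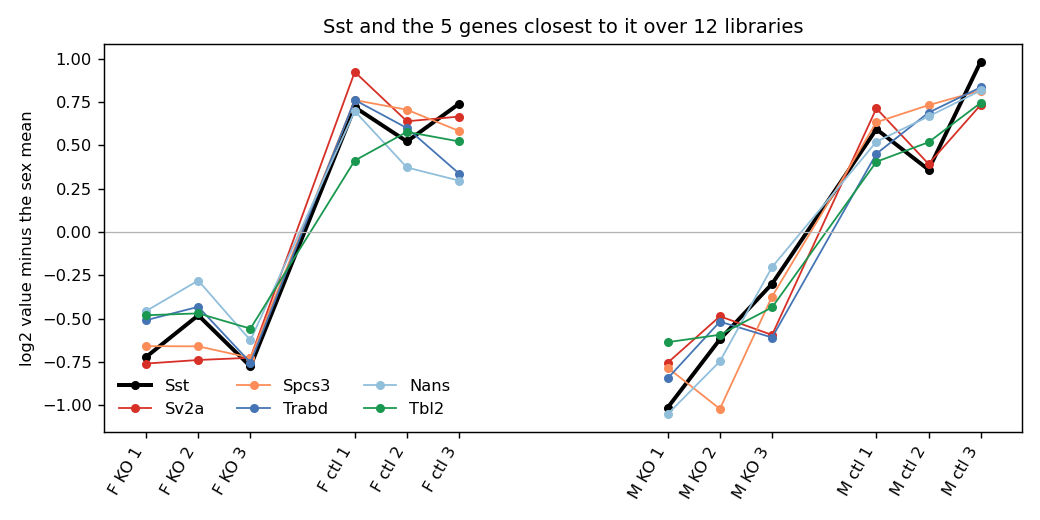
Log2 value of Sst (black) and of the 5 genes closest to it, each minus its mean over the 6 libraries of the sex (vertical axis), in the female (F) and male (M) knockout (KO) and control (ctl) libraries (horizontal axis), with lines joining the points of 1 gene. All 6 genes lie below 0 in every knockout library and above 0 in every control library, and their root mean square differences to Sst are 0.18 to 0.21. The 5 genes were picked for closeness to Sst, so they share this pattern by selection.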

How the data were processed

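Whole-islet RNA was sequenced in 12 libraries, grouped by the sex, genotype and replicate number in the labels. Per the submitters' processing notes, FastQC 0.11.9, Trim Galore 0.6.7, STAR 2.7.3a, featureCounts (no version given) and GRCm39 (mm39) were used, while strandedness, annotation release and the handling of multi-mapping reads are not given in the sources used here. The authors deposited a table for each sex, with signal values that are read counts scaled by a size factor of each library. Per the file headers, the deposited log2 fold changes (knockout over control) and p-values are from DESeq2. The tables listed 24631 genes in females and 24474 in males, after 79 and 73 repeated entries were removed. No gene in the tables overlaps the span of a member.

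Values were analysed as log2(normalized count + 1). Genes that averaged 10 or more within a sex were fitted with limma-trend (R 4.3.3, limma 3.58.1, robust empirical Bayes), 18142 in females and 18010 in males. A gene was called when its p, adjusted over all of them after Benjamini and Hochberg, was under 0.05. All adjusted p-values of genes are from limma unless another tool is named. Fold changes are on this scale, which understates changes of low genes, while for Crhr2 in males, with a control library at 0, it gave a larger value than edgeR or DESeq2. The sex difference is the interaction over 12 libraries and 17330 genes. Dividing each library by its smallest step gave whole reads for 100% of values (tolerance 0.001). The design foresaw limma for normalized values, and edgeR 4.0.16 and DESeq2 1.42.0 were run on the recovered reads as alternatives. On simulated data with 100 genes changed by 1 and 100 by 2 on the log2 scale, the female fit over 18142 genes recovered 57% and 78% with 11 false calls and the male fit over 18010 genes 31% and 64% with 7. Far more genes were called in the real data, 3745 in females and 2372 in males. The adjusted p depends on that number, so the simulated shares do not give the recovery in the real data. Libraries of 1 group differed by 24.0 to 290 times the counting noise (chi-square per gene over 12 pairs, genes with at least 20 reads), so none was counted as a repeat of another. P-values measure the spread between these libraries, which may be in part technical. Depth limits and floors cover counting error only.

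The 8 members and all lists were chosen with earlier results of these data known. Apart from the members and Rnf20, genes are named where they belong to a list of partners, processing enzymes, further delta markers or shared transcription factors and were called in a sex, up to 20, and where they are among the 5 closest to Sst. Sstr1, Sstr3, Sstr5, Pcsk2, Cpe, Furin and the called markers of other cells were named after their values were seen.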

Additional observations from a re-analysis of the deposited data

How the results depend on the processing

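Over 11 alternative settings per sex, the effects of the tested members gave 153 values, of which 136 kept their direction and side of the threshold, 6 lost their call, 10 gained one and 1 reversed. Leaving out each library gave 84 values, of which 67 were unchanged in this sense, 12 lost a call, 3 gained one and 2 reversed. The Sst call held under every left-out library in both sexes, with a log2 fold change of -1.41 to -1.26 in females and -1.46 to -1.10 in males. In females, 3 members were lower, but 4 with DESeq2 and 1 with the acinar covariate, where Lepr turned to -0.10. The female count of higher members was 1, and 0 in the fit of all 12 libraries. In males, 3 were lower, but 2 with quantile scaling, and 0 were higher. The male count of higher members was 1 with a pseudocount of 5, a mean of at least 50, quantile scaling, edgeR, DESeq2, the fit of all 12 libraries or the replicate block. Members called numbered 2 to 3 lower and 1 to 1 higher in females without 1 library, and 1 to 3 lower (1 without male knockout 1 or control 3) and 0 to 1 higher (1 without male control 1 or 2) in males. Of the other named genes, Pdx1, Neurod1, Isl1, Mrap2, Bche, Leprot, Ptn, Socs3 and Nans lost their female calls with the acinar covariate (adjusted p between 0.0506 for Pdx1 and 0.337 for Leprot), and Frzb, Bche, Leprot, Ptn and Socs3 in the fit of all 12 libraries (between 0.0690 for Frzb and 0.183 for Socs3). The cause of these changes was not tested.

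Reversed values near 0 were Bche in males (-0.14 with edgeR, -0.13 with DESeq2) and the sex difference of Sst (0.0021 with TMM scaling, 0.0010 with edgeR). Without 1 library the values ranged from -0.32 to 0.66 for Lepr in males, -0.61 to 0.56 for Bche in males, -0.064 to 0.55 for Casr in females, -0.22 to 0.14 for the Sst sex difference and -0.35 to 0.63 for the Lepr sex difference.

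Replicate numbers are shared between knockout and control libraries, but nothing says that a number marks a pair. The deviations of same-numbered libraries correlated at -0.04, -0.28 and -0.13 in females and 0.12, 0.01 and 0.15 in males. Those of differently numbered libraries correlated at -0.11 to 0.25 in females and -0.16 to 0.08 in males. With 3 libraries per group, these values do not settle whether the numbers mark pairs. With the replicate block, Hhex in females (adjusted p = 0.0505) lost its call, and Rbp4 in females (0.0357) and Crhr2 in males (0.0168) gained one.

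Over all genes, 1949 were lower and 1796 higher in females, 688 and 556 with the acinar covariate, 1311 and 1097 in the fit of all 12 libraries, and 1930 and 1804 with edgeR. In males 1277 were lower and 1095 higher, 2211 and 2185 in the fit of all 12 libraries, 501 and 313 without knockout 1, and 1300 and 1036 with edgeR. The interaction called 19 genes, 25 with edgeR and 0 with the replicate block. Male control 2, the shallowest library, held under 100 reads each of Nrg3, Lepr, Crhr2, Ghsr and Ptprz1, which limits the male values of these genes.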
